A study of Mus musculus with 48 samples.

Results

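The genes of blood coagulation and fibrinolysis were followed through the making and engraftment of mouse liver spheroids. The list held 36 genes, of which 35 were matched by symbol among the 46517 genes counted, and *Klkb1* was not matched and has no value here. RNA was sequenced from 3 livers, 3 hepatocyte-enriched preparations, 2 samples of spheroids kept in vitro, 3 naïve irises and 5 explants. An explant was made of spheroids that had engrafted on the iris in the anterior chamber of the eye of a recipient mouse. They were taken out at 2 months post-tx together with the iris around them. All samples were labelled genotype WT Albino and strain C57BL/6N, and the labels give no drug or genetic change in any group. The hepatocytes came from collagenase-perfused mouse livers purified on Percoll, and the spheroids were formed from such cells. The labels do not say whether samples of a group came from separate mice, so p-values measure only the spread between these samples.

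Coagulation turns soluble fibrinogen into a fibrin clot through a chain of proteases, most of which hepatocytes secrete into blood as inactive precursors. Several of them need a vitamin K-dependent modification to bind membranes, and serpins and the protein C system hold them in check. Endothelial and stromal cells carry the surface side of the system, such as tissue factor, thrombomodulin and the receptors of protein C and of thrombin, and they secrete the plasminogen activators that start fibrinolysis.

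The total count was 2718518 to 6789648 per sample, and values below are TPM before correction unless said otherwise, which makes levels of different genes comparable per length. The share of iris RNA in an explant, solved from the deposited tables, was 82%, 68%, 81%, 72% and 59% in explants 1, 2, 4, 5 and 6. The paper had estimated this share from expression signatures of iris and liver. The corrected level of a liver gene is therefore not independent of the liver profile. Corrected values are the explant TPM less the iris share of the mean iris TPM, divided by the remaining share and set to 0 where negative. They were not rescaled, and summed to 1030690 (explant 6) to 1127700 (explant 4), above the total of uncorrected TPM. Corrected explants are thus slightly raised against liver and spheroid TPM, most in explants 4 and 1 (1099580). In bulk RNA, fewer cells of a type and less RNA per cell cannot be told apart. All 10 hepatocyte markers were at 1 TPM or more on average in every group, and their summed level was 14392 to 15543 TPM in livers, 15085 to 18275 in hepatocyte preparations, 13768 and 15629 in spheroids, 5471 to 8093 in explants and 1605 to 1931 in irises. The irises thus held transcripts of these markers too, and the source of these transcripts was not tested.

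By their levels in liver, hepatocyte preparations and iris the 35 genes fell into 3 classes. The class of hepatocyte genes held 21, with at least 1 TPM and at least 2 times the iris level in liver and at least 50% of the liver level in the preparations: all fibrinogen chains, *F2*, *F5*, *F7*, *F9*, *F10*, *F11*, *F12*, *F13b*, *Proc*, *Proz*, *Plg*, *Cpb2*, *Kng1*, *Kng2*, *Serpinc1*, *Serpind1*, *Serpinf2* and *Vkorc1*. Their iris level was 0.596% to 34.3% of the liver level (median 1.39%), and without *F5* and *Vkorc1* it was at most 4.41%. In 6 genes with at least 1 TPM in liver the hepatocyte preparations held less than 50% of the liver level, namely *F8*, *Vwf*, *Plat*, *Plau*, *Plaur* and *Procr*. *F13a1* was also under 50% but had a mean below 1 TPM in liver, and was not placed among them. In livers *Plat* reached 11.6 TPM against a median of 3.39, and *Plaur* 12.5 against 4.03. The preparation means of both genes were above 50% of these medians. The same held for *F8* (mean 3.32 against a liver median of 5.42), *Plau* (0.525 against 0.892) and *Procr* (0.951 against 1.62). Of the 6 genes only *Vwf*, at 0.128 against 1.67, was also under 50% of the liver median. The remaining 8, *A2m*, *F13a1*, *F2r*, *F3*, *Ggcx*, *Pros1*, *Tfpi* and *Thbd*, were shared with iris or higher there. The rule used the liver, preparation and iris samples, so counts and medians of a class in comparisons with these are a description. *Plat*, *Plau*, *Procr*, *A2m*, *F13a1* and *Thbd* were at least 19.1 times as high in iris as in liver.

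**Figure D1:**
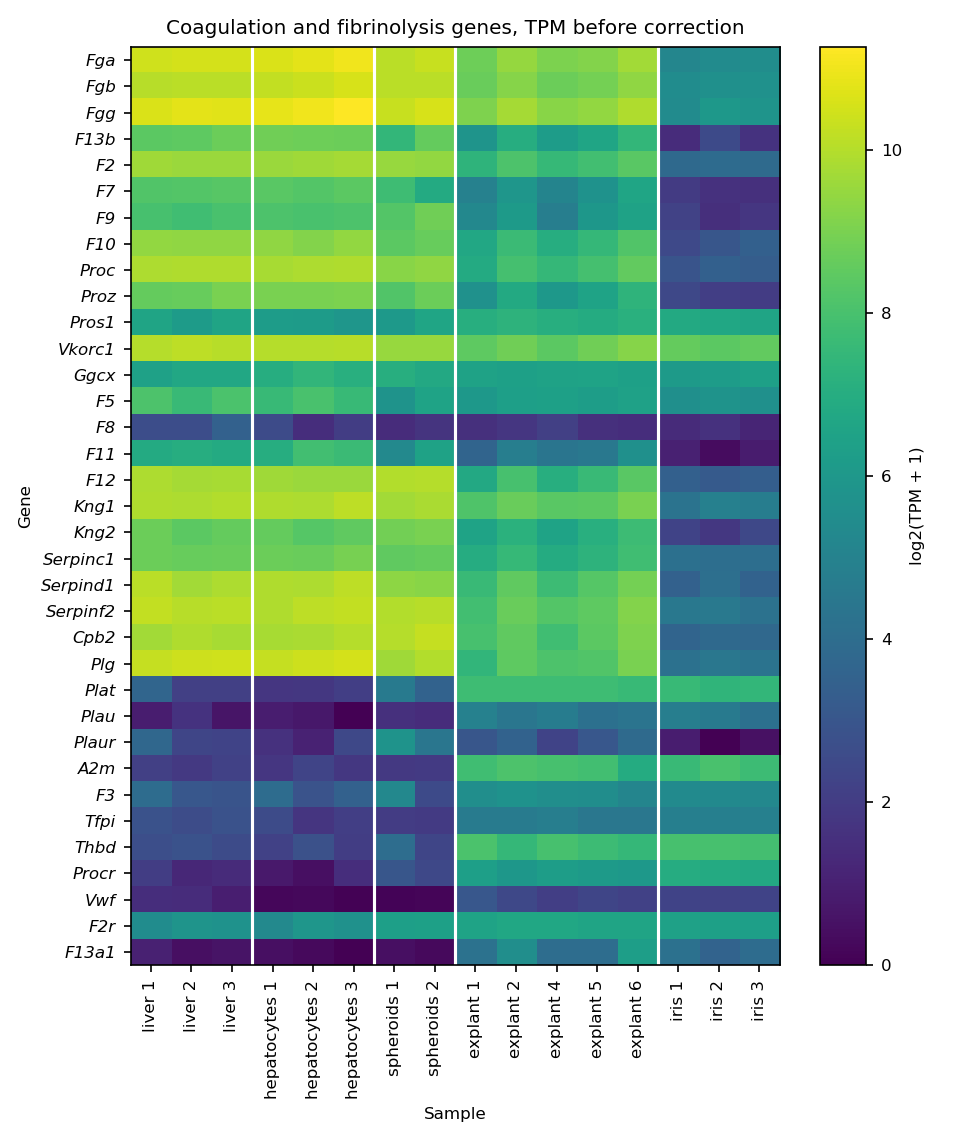
TPM of each of the 35 genes (rows, by role) in each of the 16 samples (columns, by group) before correction, as colour on a log2(TPM + 1) scale. The hepatocyte genes other than *F5* and *Vkorc1* are bright in livers, preparations and spheroids, intermediate in explants and darkest in irises. *Vkorc1* is bright in every group. *Plat*, *A2m*, *Thbd* and *Procr* are bright in irises and explants and dark elsewhere.

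Explants held far more of the liver-made clotting factors than naïve irises. All 35 genes were tested, and 20 were called higher in explants with adjusted p below 0.05 and a log2 fold change beyond 1 in size, where 6.16% of the 16764 genes tested were called higher. Of these 20 genes 19 were hepatocyte genes, from *Fgb* and *Serpinc1* with the smallest changes to *F13b* and *Kng2* with the largest, and the remaining gene was *Plaur*. The hepatocyte genes not called were *F5* (log2 fold change 0.73 ± 0.13 SE, adjusted p = 0.00839) and *Vkorc1* (log2 fold change 0.37 ± 0.20 SE, adjusted p = 0.267). With edgeR 0 genes of the list were called lower (0.316% of all genes tested), as with DESeq2 and limma-voom, and 1 was lower at an unadjusted p under 0.05. The median log2 fold change was 3.89 over the list and 0.01 over all genes tested.

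Between hepatocyte preparations and livers 1 gene of the list was called. Of 31 genes tested, edgeR called 0 higher (0.409% of all genes tested), as did DESeq2 and limma-voom, and 8 were higher at an unadjusted p under 0.05. The single gene called lower (2.31% of all genes tested) was *Vwf*. The median log2 fold change was 0.18 over the list, against 0.01 over all genes tested.

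Between spheroids kept in vitro and hepatocyte preparations the list held calls in both directions. Of 32 genes tested, 5 were called lower in spheroids, *F11*, *F5*, *F7*, *F10* and *Serpind1*, and 9.11% of all genes tested were called lower. The 3 called higher, *Plaur*, *Plat* and *Procr*, stood against 8.13% of all genes tested. Of the 21 hepatocyte genes 18 had a negative log2 fold change, with a median of -0.84, and 11 had an adjusted p under 0.05, while the median over all genes tested was 0.01. Genes of liver at large were lower in spheroids too. Over 375 genes with at least 100 TPM in liver and less than 5% of that level in iris, the median difference was -0.79. That set was chosen after the values were seen, in part by the liver level, and it holds the 19 hepatocyte genes other than *F5* and *Vkorc1*. Its median is on log2(TPM + 1), another scale than the edgeR values. Scaled by library size alone, the median over all genes was 0.27 and 3 genes were called lower, since *F10* (log2 fold change -0.90) and *Serpind1* (-0.77) no longer passed the fold change limit. Over all genes that scaling moved the calls from 996 higher and 1116 lower to 1531 and 808. The counts rested in part on single samples, with 1 higher and 2 lower without spheroid sample 1, 11 lower without spheroid sample 2 and 3 lower without hepatocyte preparation 3.

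After correction for iris RNA, the hepatocyte genes of explants lay on both sides of their liver level. Of 35 genes tested by limma on log2(TPM + 1), 7 were called higher than in liver (10.5% of all genes tested), *Pros1*, *F2r*, *F3*, *Thbd*, *F13a1*, *Plat* and *Plaur*, and 1 lower (2.82%), *Procr*, which is listed at 0 in every corrected explant. The count called lower was 0 without explant 2, 4 or 5 or any of the livers, and 2 without explant 6. Of the 21 hepatocyte genes limma called 0, with 10 differences above 0 and 11 below, from -1.10 to 0.71. At an adjusted p under 0.05 with no fold change limit 4 were higher and 1 lower. By the unadjusted p under 0.05 7 were higher and 5 lower. Their median log2 difference was -0.03, against 0.59 over all 22878 genes tested and -0.60 over the 375 genes that had at least 100 TPM in liver and less than 5% of that level in iris, a set chosen after the values were seen. Against spheroids 3 genes were called higher in corrected explants (4.37% of all genes tested), *Pros1*, *Plat* and *F13a1*, and 1 lower (0.951%), *Procr*. Without either spheroid sample 1 gene was called higher, and without explant 2 or 5 the count called lower was 0. The median of the 21 hepatocyte genes was 0.33 there, against 0.55 over all genes tested and 0.18 over the same 375 genes. At an unadjusted p under 0.05 8 of them were higher than in spheroids and 2 lower. On simulated mixtures this test also called unchanged genes that the iris expresses, so calls on such genes are given as values and not read as differences.

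**Figure D2:**
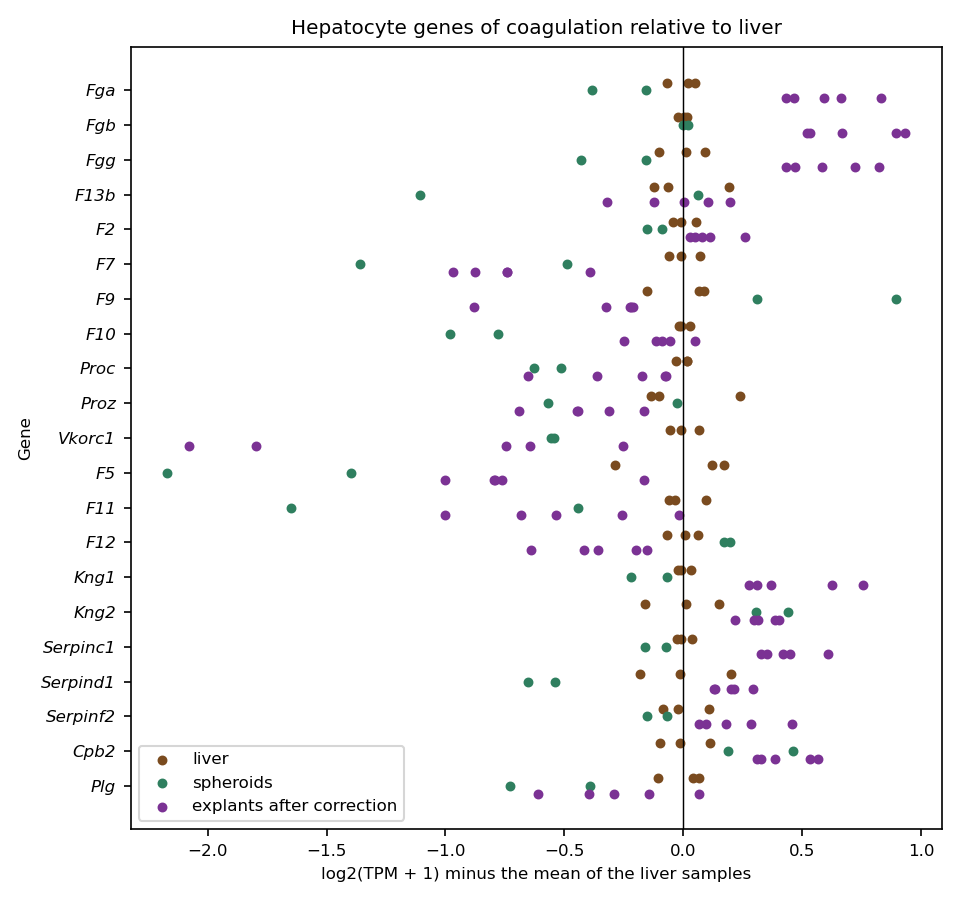
Each of the 21 hepatocyte genes (rows) in livers, spheroids and corrected explants, as log2(TPM + 1) less the mean of the 3 livers, with a point per sample. All explants are higher than all livers for the fibrinogen chains, *Serpinc1*, *Kng1*, *Kng2* and *Cpb2*, and lower for *F7*, *F9*, *F12*, *Proc*, *Proz* and *Vkorc1*.

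The fibrinogen chains share a cluster on chromosome 3, where *Fgg* (83007724 to 83015049, plus strand), *Fga* (83026076 to 83033627, plus strand) and *Fgb* (83040141 to 83049863, minus strand) lie side by side in mm10. Their promoters are shown because the log2 values of the chains had the same sign as each other in every comparison, and those of *F7* and *F9* because these vitamin K-dependent factors had log2 values of opposite sign in spheroids. Each runs from 250 bases before the start to 50 after it, 5′ to 3′ on the gene's strand, as RefSeq gives it on GRCm38.p6. For *Fga* this RefSeq start lies downstream of the gene start at 83026076, and positions in its promoter are counted from the RefSeq start. Capitals mark matches on either strand to GTTAAT (a half-site of HNF1), CAAAGGTCA (HNF4), TTGCNNAA (C/EBP) and CTGGGAA (the interleukin-6 response motif of acute-phase genes).
Fga (chr3:83025903-83026202, plus strand): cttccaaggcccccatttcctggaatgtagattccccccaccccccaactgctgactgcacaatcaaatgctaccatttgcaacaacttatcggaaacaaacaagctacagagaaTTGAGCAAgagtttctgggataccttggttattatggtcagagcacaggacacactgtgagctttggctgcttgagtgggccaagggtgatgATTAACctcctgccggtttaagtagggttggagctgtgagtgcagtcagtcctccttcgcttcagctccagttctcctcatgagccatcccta
Fgb (chr3:83049814-83050113, minus strand): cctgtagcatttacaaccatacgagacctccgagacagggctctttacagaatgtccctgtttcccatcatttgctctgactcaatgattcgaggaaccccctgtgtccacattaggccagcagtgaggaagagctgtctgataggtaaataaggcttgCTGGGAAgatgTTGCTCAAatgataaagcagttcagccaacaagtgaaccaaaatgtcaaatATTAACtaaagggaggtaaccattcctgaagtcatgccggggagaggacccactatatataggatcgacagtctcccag
Fgg (chr3:83007474-83007773, plus strand): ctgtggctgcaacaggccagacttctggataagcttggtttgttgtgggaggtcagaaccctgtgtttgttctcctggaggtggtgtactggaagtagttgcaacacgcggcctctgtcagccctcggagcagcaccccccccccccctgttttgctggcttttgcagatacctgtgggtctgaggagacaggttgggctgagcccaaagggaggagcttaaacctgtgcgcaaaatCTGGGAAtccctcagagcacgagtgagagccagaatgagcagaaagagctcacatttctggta
F7 (chr8:13025784-13026083, plus strand): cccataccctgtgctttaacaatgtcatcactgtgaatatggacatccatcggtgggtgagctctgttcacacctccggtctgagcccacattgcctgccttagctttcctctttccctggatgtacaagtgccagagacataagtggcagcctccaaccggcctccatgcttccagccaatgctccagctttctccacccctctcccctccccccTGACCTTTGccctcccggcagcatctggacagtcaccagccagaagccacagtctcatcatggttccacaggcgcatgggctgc
F9 (chrX:59999214-59999513, plus strand): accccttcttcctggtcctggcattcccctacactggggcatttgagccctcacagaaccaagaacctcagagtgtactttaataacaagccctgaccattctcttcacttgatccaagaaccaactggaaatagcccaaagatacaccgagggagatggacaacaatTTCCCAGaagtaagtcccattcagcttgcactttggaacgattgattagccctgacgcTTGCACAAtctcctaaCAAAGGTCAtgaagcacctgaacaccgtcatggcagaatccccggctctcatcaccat

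The promoters of *Fga* and *Fgb* both hold the HNF1 half-site, at -43 to -38 and -29 to -24 from the start, and the C/EBP motif, at -135 to -128 and -80 to -73. CTGGGAA lies at -91 to -85 in *Fgb*, at -13 to -7 in *Fgg* and, on the other strand, at -82 to -76 in *F9*. The HNF4 motif lies at -34 to -26 in *F7* and at -8 to 1 in *F9*, where the C/EBP motif lies at -24 to -17. A promoter was matched for 27 of the 35 genes, not for *A2m*, *Kng1*, *Plat*, *Plau*, *Plg*, *Proc*, *Thbd* or *Vwf*, and of the 18 hepatocyte genes among them 5 held the HNF1 half-site (7.10% of all 32851 promoters), 2 the HNF4 motif (0.478%), 7 the C/EBP motif (10.8%) and 4 CTGGGAA (11.1%). Of the 9 other genes none held either of the HNF1 and HNF4 motifs, 3 held the C/EBP motif and 1 CTGGGAA.

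Per length, *Fgg* and *Fga* were at the highest mean TPM of the list in liver, and *Fgb* came after *Plg* and *Serpinf2*. *Fga*, the alpha chain, was at 1375, 1489.5 and 1461 in livers, 1568, 1786 and 2062 in hepatocyte preparations and 1105 and 1291 in spheroids. In explants it was at 443, 722, 519.5, 573 and 839.8, and in irises at 34.7, 41.6 and 44.5. Every explant lay above every iris and below every liver before correction. The log2 fold change of *Fga* from iris to explant was 4.06 (with SE, the standard error of the fit, 0.29, adjusted p = 0.000118), with 3.53 for *Fgb* (SE 0.24, adjusted p = 0.000118) and 3.89 for *Fgg* (SE 0.28, adjusted p = 0.000118).

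After correction the fibrinogen chains were higher in explants than in any liver. *Fga* was at 2279, 2170.2, 2563, 1944 and 1990.4 corrected TPM in the 5 explants, *Fgb* at 2074, 1726, 2020.1, 1571 and 1557, and *Fgg* at 2788, 2534, 2995, 2339.6 and 2279. In livers *Fgb* was at 1070.1, 1089 and 1099 TPM and *Fgg* at 1576, 1801 and 1703. The log2 differences were 0.60 for *Fga* (SE 0.12, adjusted p = 0.0119), 0.71 for *Fgb* (SE 0.13, adjusted p = 0.0092) and 0.61 for *Fgg* (SE 0.12, adjusted p = 0.0121), under the fold change limit and close to the median of 0.59 over all genes tested. They lay above the median of -0.60 over the 375 genes of liver, which were selected by their liver level and include these chains. The hepatocyte preparations were above the livers too, with log2 fold changes of 0.46 to 0.47 and adjusted p of 0.0963 to 0.119. Between spheroids and preparations the log2 fold changes were -0.91 for *Fga* (SE 0.27, adjusted p = 0.0424), -0.64 for *Fgb* (SE 0.25, adjusted p = 0.101) and -0.93 for *Fgg* (SE 0.27, adjusted p = 0.0419). Without spheroid sample 2 the values were -1.17 for *Fga* and -1.21 for *Fgg*, and both genes were then called, as they were without hepatocyte preparation 1 and with a limit on read starts undone.

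In livers *Fgg* held 0.823 counts per base per library and *Fga* 0.701, the highest values of the list there. In explants *Fgg* held 0.504. Reads that start at the same base were described as removed upstream, which would limit the count of densely covered genes. The paper's reporting summary also lists UMI-tool dedup, which removes duplicates by molecular barcode. Whether a limit by read start holds in these counts was not tested. With a limit of 2 starts per base undone, the difference from liver in corrected explants was 0.50 for *Fgg*, 0.52 for *Fga* and 0.68 for *Fgb* on the log2 scale. *Fgg* shares 115 of its 2093 exonic bases with *Gm30097* on the opposite strand, and reads were counted without regard to strand. *F13b*, the carrier subunit of the enzyme that crosslinks fibrin, was at 342, 356 and 426 TPM in livers and 299, 401, 373, 342 and 427 corrected TPM in explants, and the groups overlapped. Its spheroid samples differed from each other, at 173 and 389.

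The vitamin K-dependent proteases and cofactors did not move together. Prothrombin, *F2*, was at 802, 750.4 and 768 TPM in livers, 760.3, 803 and 861 in preparations and 726 and 695 in spheroids. In explants it was at 158, 277, 187, 231 and 336 before correction against 13.2, 14.4 and 14 in irises (log2 fold change 4.22 ± 0.33 SE, adjusted p = 0.000162). Corrected explants, at 817, 835, 925, 788 and 799, overlapped the livers (log2 difference 0.11 ± 0.12 SE, adjusted p = 0.569).

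*F7*, the factor that starts the chain on tissue factor, lay below its source level in cultured and in engrafted spheroids. It was at 336, 305 and 342 TPM in hepatocyte preparations and 217 and 118 in spheroids (log2 fold change -1.33 ± 0.23 SE, adjusted p = 0.00617), which is 2.51-fold lower, with no overlap. In corrected explants it was at 155, 182, 166, 182 and 232, below all livers at 292, 303 and 319.6 (log2 difference -0.74 ± 0.18 SE, adjusted p = 0.0285), a difference under the fold change limit. With the iris fraction by non-negative least squares that adjusted p was 0.0707, and it was 0.122 with the corrected values as deposited. The log2 difference of *F7* from liver was near the median of -0.60 over the 375 genes of liver, which include *F7*.

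*F10*, which cleaves prothrombin, fell from 677, 583 and 687 TPM in preparations to 342 and 393 in spheroids (log2 fold change -1.14 ± 0.23 SE, adjusted p = 0.0103), and without spheroid sample 1 its log2 fold change was -0.94. In corrected explants it was at 567, 622, 649, 633 and 697, overlapping the livers at 688, 667 and 670.2 (log2 difference -0.09 ± 0.13 SE, adjusted p = 0.609) and above the spheroids by 0.79 on the log2 scale (SE 0.17, adjusted p = 0.0331). *F9*, the gene of hemophilia B, was the protease of the group with a positive log2 fold change in culture. It was at 278, 259.8 and 278 TPM in preparations and 303 and 455 in spheroids, and the TMM-scaled log2 fold change was 0.17 (SE 0.25, adjusted p = 0.642), while the TPM of both spheroid samples were above all preparations. Corrected explants were at 195, 209, 132, 209 and 211, of which explant 4 was the lowest, below all livers at 256, 219.9 and 259.7 (log2 difference -0.37 ± 0.21 SE, adjusted p = 0.275).

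*F7*, *F10* and *Proz* lie next to each other on chromosome 8 (13026034 to 13075006 from the start of *F7* to the end of *Proz*). *Proz*, the cofactor of an inhibitor of activated factor X, was at 393, 402 and 509.8 TPM in livers, 509, 513 and 528 in preparations and 290.4 and 424 in spheroids (log2 fold change -0.84 ± 0.26 SE, adjusted p = 0.0461). *Proc*, the precursor of the anticoagulant protease protein C, was at 869.6, 945 and 979 in preparations and 619.9 and 671 in spheroids (log2 fold change -0.85 ± 0.21 SE, adjusted p = 0.0223). Both had an adjusted p under 0.05 with a log2 fold change between -1 and 0, and passed the limit without spheroid sample 2, at -1.28 for *Proz* and -1.04 for *Proc*. In corrected explants *Proc* was at 609, 745, 912, 849.6 and 909 and in livers at 939, 968 and 968, where all explants were below all livers (log2 difference -0.27 ± 0.16 SE, adjusted p = 0.301) without passing the test.

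*Pros1*, the cofactor of protein C, belonged to another class, since iris expressed it as strongly as liver. It was at 93.2, 72.0 and 95.5 TPM in livers, 114, 105 and 95.7 in irises and 132, 155, 130.5, 121 and 139 in explants. Every explant lay above every iris, and the log2 fold change was 0.47 (SE 0.12, adjusted p = 0.0296). Measured against the iris share, an explant held 1.53 to 2.24 times the *Pros1* that its iris part would give, and the excess corresponded to 256, 262, 239, 162 and 188 corrected TPM.

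The enzymes of the vitamin K cycle were expressed in both tissues. *Vkorc1*, which regenerates reduced vitamin K and is the target of warfarin, was at 1032, 1122 and 1065 TPM in livers, 736 and 729 in spheroids and 385, 339 and 379.6 in irises (log2 fold change -0.83 ± 0.18 SE, adjusted p = 0.0135 for spheroids against preparations). In corrected explants it varied from 253 to 898 TPM, the widest spread of any hepatocyte gene on the log2 scale in the plot of hepatocyte genes relative to liver, and explants 1 and 4, with the highest iris shares, were the lowest. *Vkorc1* shares 52.3% of its exonic bases with *Gm21974* on the opposite strand, so its reads and those of that gene cannot be told apart. *Ggcx*, the carboxylase, was at 84.8, 106 and 106 in livers, 129, 169.7 and 136 in preparations and 70.1, 73.4 and 84.5 in irises, and its log2 fold change of 0.69 from liver to preparations did not pass the test (SE 0.16, adjusted p = 0.0567).

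The cofactor *F5* and the contact factor *F11* showed the strongest decreases in culture. *F5* was at 191, 256 and 189 TPM in preparations and 53.5 and 92.1 in spheroids (log2 fold change -1.84 ± 0.33 SE, adjusted p = 0.0068), 3.58-fold lower. In corrected explants it was at 121, 144, 218, 141 and 140.4, against 275, 199.6 and 265 in livers (log2 difference -0.70 ± 0.24 SE, adjusted p = 0.0822), with explant 4 inside the range of the livers. Irises held 48.1, 54.3 and 49.1, and the log2 fold change of *F5* from iris to explant was 0.73 (SE 0.13, adjusted p = 0.00839), under the limit. *F11* was at 129, 227 and 206 in preparations and 37.9 and 88.9 in spheroids (log2 fold change -1.85 ± 0.44 SE, adjusted p = 0.0195), and the spheroid samples differed by more than 2 times. Without spheroid sample 1 the adjusted p of *F11* was 0.0665, and without hepatocyte preparation 3 it was 0.0578. Its corrected level in explants, 60.0, 83.2, 101.1, 75.2 and 119.5, overlapped that of the livers, 116, 129.6 and 118 (log2 difference -0.50 ± 0.26 SE, adjusted p = 0.245).

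**Figure D3:**
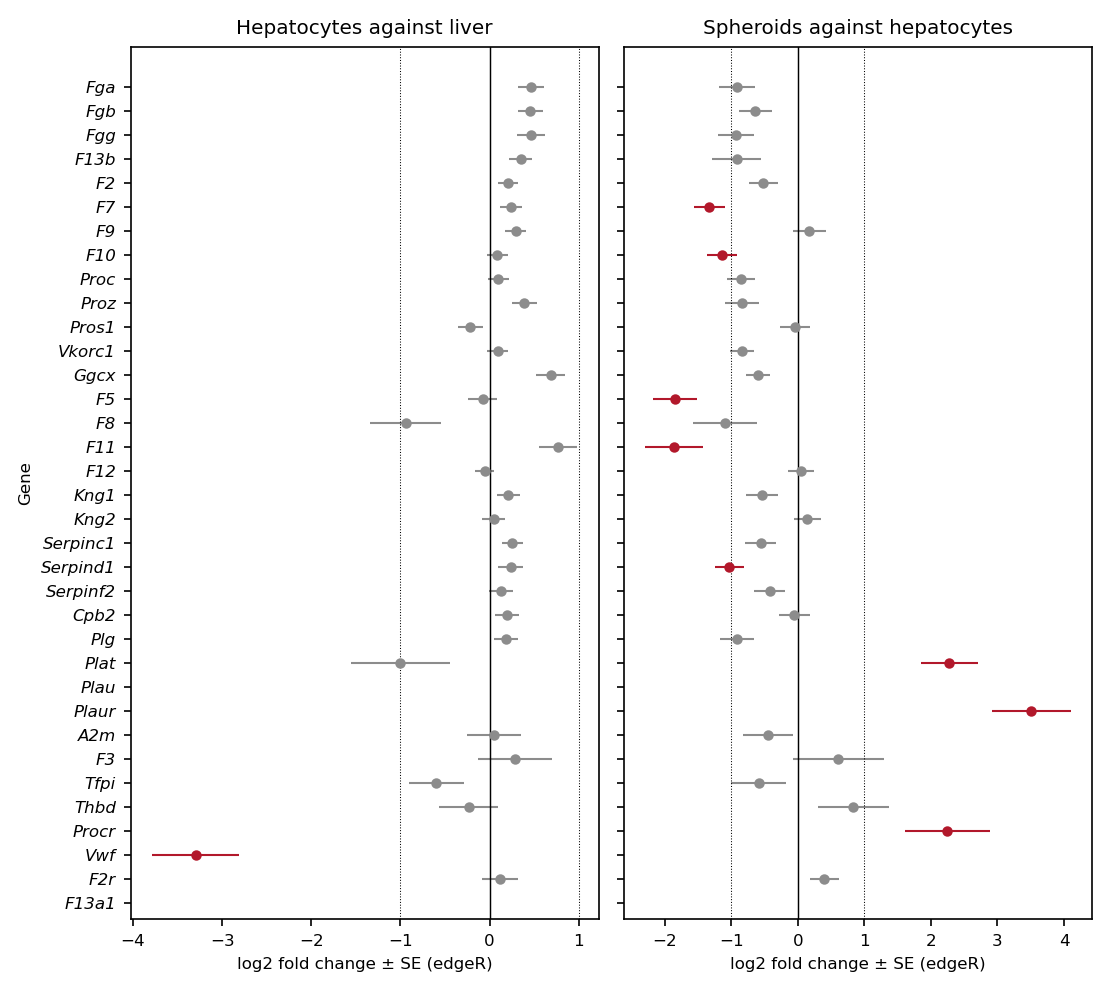
Log2 fold change with its standard error from edgeR for each gene (rows), hepatocyte preparations against livers on the left and spheroids against preparations on the right. Red marks genes called at an adjusted p under 0.05 outside the dotted lines at -1 and 1, and genes too low to be tested have no point. On the left only *Vwf* is red, and on the right *F7*, *F10*, *F5*, *F11* and *Serpind1* are red below 0 and *Plat*, *Plaur* and *Procr* above.

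The other genes of the contact system were not called in any comparison but that of explants with irises. *F12*, which starts contact activation, was at 812, 752 and 761 TPM in preparations and 996 and 1014 in spheroids (log2 fold change 0.05 ± 0.19 SE, adjusted p = 0.871). Its corrected level in explants was 568, 772, 663, 691 and 796, below all livers at 925, 844 and 889.8 without passing the test (log2 difference -0.35 ± 0.15 SE, adjusted p = 0.147). *Kng1*, a kininogen that serves as cofactor there, was at 1490.2, 1245, 1631, 1169 and 1198 corrected TPM in explants and 958, 951 and 987 in livers (log2 difference 0.47 ± 0.14 SE, adjusted p = 0.0602), with no overlap and an adjusted p above 0.05 that was 0.0219 with the iris fraction by non-negative least squares. *Kng2*, its paralog on the same chromosome, was at 495, 440.4, 465, 471 and 500.1 in corrected explants and 420.1, 338 and 381 in livers (log2 difference 0.32 ± 0.14 SE, adjusted p = 0.168). The ratio of *Kng1* to *Kng2* TPM was 2.28 to 2.81 in livers and 1.77 to 1.79 in spheroids, and reads shared by such paralogs may have been split or dropped.

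The cofactor *F8*, which is made by endothelial cells of the liver sinusoids, was low everywhere. It was at 5.42, 5.40 and 10.3 TPM in livers, 5.02, 1.76 and 3.18 in preparations, 1.69 and 2.19 in spheroids and 1.58, 2.07 and 1.22 in irises. The preparations overlapped none of the livers, and neither their log2 fold change of -0.94 (SE 0.40, adjusted p = 0.189) nor that of spheroids against preparations, -1.10 (SE 0.48, adjusted p = 0.13), passed the test. All 8 sinusoidal endothelial markers were at 1 TPM or more on average in livers, preparations and spheroids, with a summed level of 267 to 351 TPM in livers, 62.3 to 209 in preparations and 75.3 and 85.9 in spheroids. The part of these cells in the level of *F8* was not tested.

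None of the serpins that hold thrombin and plasmin in check was called between corrected explants and liver. *Serpinc1*, antithrombin, was at 421, 404 and 409 TPM in livers and 627, 551, 562, 516 and 525 corrected TPM in explants, with no overlap (log2 difference 0.43 ± 0.13 SE, adjusted p = 0.0634). It shares 34.4% of its exonic bases with *Zbtb37* on the opposite strand, which was at 4.67 TPM on average in livers. *Serpind1*, heparin cofactor, was at 978, 940.0 and 1135 in preparations and fell to 654 and 604 in spheroids (log2 fold change -1.03 ± 0.22 SE, adjusted p = 0.0128). The call on *Serpind1* was near the fold change limit and was lost without spheroid sample 1 (log2 fold change -0.97), without hepatocyte preparation 3 (-0.89), without a filter on low counts (-0.998) and with a replicate block (-0.91). Corrected explants were at 1043, 1104, 1039, 1094 and 1166, above both spheroid samples by 0.79 on the log2 scale (SE 0.14, adjusted p = 0.0158) and overlapping the livers (log2 difference 0.19 ± 0.13 SE, adjusted p = 0.336). *Serpinf2*, the plasmin inhibitor, was at 1197, 1049 and 1093 in livers and 1164, 1257, 1526, 1188 and 1353 in corrected explants (log2 difference 0.22 ± 0.13 SE, adjusted p = 0.297).

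The hepatocyte genes of fibrinolysis were *Plg*, plasminogen, and *Cpb2*, a carboxypeptidase that protects fibrin. *Plg* was at 1231, 1371 and 1481 TPM in preparations and 796 and 1006 in spheroids (log2 fold change -0.91 ± 0.26 SE, adjusted p = 0.0378), under the fold change limit. *Cpb2* was at 878, 920.3 and 1018 in preparations and 1026 and 1239 in spheroids (log2 fold change -0.05 ± 0.23 SE, adjusted p = 0.893). In corrected explants *Plg* was at 864, 1078, 1384, 1004 and 1196, overlapping the livers at 1228, 1358 and 1381 (log2 difference -0.27 ± 0.16 SE, adjusted p = 0.293), and *Cpb2* at 1333, 1116, 1128, 1174 and 1301, above all livers at 840.5, 972 and 890.3 (log2 difference 0.42 ± 0.12 SE, adjusted p = 0.0475).

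The receptor of urokinase, *Plaur*, was the gene of the list that increased most in culture. It was at 2.01, 1.14 and 4.51 TPM in preparations and 54.5 and 20.2 in spheroids (log2 fold change 3.51 ± 0.59 SE, adjusted p = 0.00551), and the spheroid samples lay far above all preparations although they differed from each other. It was also higher in explants, at 7.02, 10.6, 3.84, 7.36 and 13.7, than in irises, at 0.86, 0 and 0.435 (log2 fold change 4.25 ± 0.74 SE, adjusted p = 0.00667), and iris 2 had no count. Corrected explants were at 37.03, 32.3, 18.4, 25.2 and 32.8, against 12.5, 4.03 and 3.78 in livers (log2 difference 2.09 ± 0.47 SE, adjusted p = 0.0182) and overlapping the spheroids (log2 difference -0.22 ± 0.51 SE, adjusted p = 0.8). Without liver 2 or liver 3 the adjusted p against liver was 0.0961 and 0.0974.

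Macrophages also express *Plaur*. All 10 macrophage and Kupffer cell markers were at 1 TPM or more on average in livers, preparations, spheroids and explants, and 7 of 10 in irises. Their summed level was 619 to 1160 TPM in livers, 189 to 356 in preparations, 679 and 785 in spheroids, 1048 to 2841 in explants and 741 to 796 in irises, and no marker was at 0 in every sample of a group. The part of macrophages in the level of *Plaur* was not tested.

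**Figure D4:**
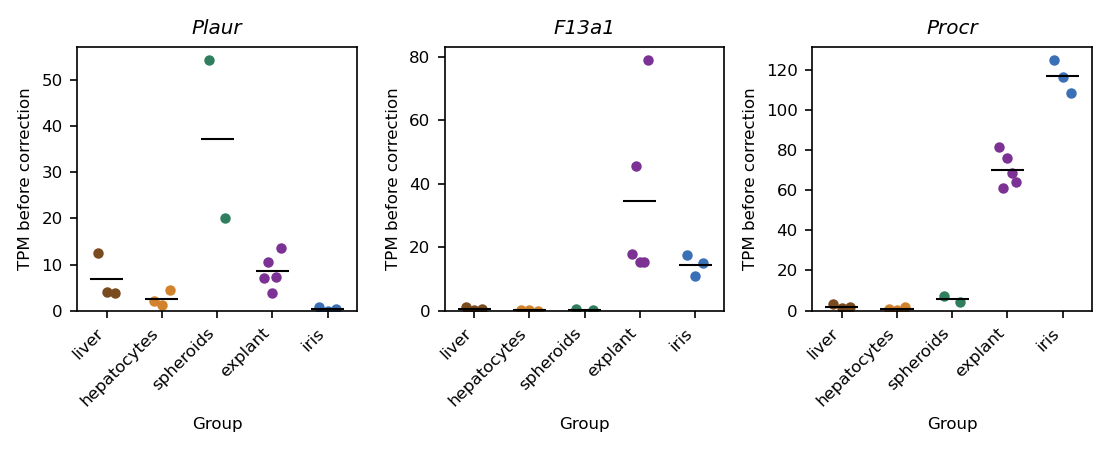
TPM before correction of *Plaur*, *F13a1* and *Procr* in each sample (points) by group, with the group mean as a bar. *Plaur* is highest in the 2 spheroid samples, *F13a1* in explants 2 and 6, and *Procr* in the 3 irises, with all 5 explants below them.

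*F13a1*, the catalytic subunit of the fibrin-crosslinking enzyme and a product of macrophages and platelets, was nearly absent outside iris and explants. It was at 1.06, 0.359 and 0.504 TPM in livers and 0.357, 0.202 and 0 in preparations, with at most 6 counts in a sample, and at 17.4, 10.95 and 14.98 in irises. In explants it was at 17.7, 45.7, 15.4, 15.5 and 79.1, so that explants 2 and 6 stood above all irises and explants 1, 4 and 5 near them (log2 fold change 1.41 ± 0.64 SE, adjusted p = 0.185). Explants 2 and 6 also had the highest sums of macrophage markers, 2349 and 2841 TPM, against 1048 to 1580 in the other explants. Markers of sinusoidal endothelium summed to 87.0 and 89.6 TPM in them, against 32.6 to 46.2, and hepatocyte markers to 7126 and 8093, against 5471 to 5981, and their iris shares, 68% and 59%, were the lowest. Platelet and megakaryocyte markers summed to 104 and 130 TPM in these explants, 48.5 to 74.3 in the others and 61.2 to 92.7 in irises, with *Gp6* and *Treml1* at 0 in all explants and irises. The part of these cell types or of the iris share in *F13a1* was not tested.

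The plasminogen activator of endothelium, *Plat*, was mainly an iris gene here, and it was also called higher in cultured spheroids. It was at 11.6, 3.34 and 3.39 TPM in livers, 2.49, 2.51 and 3.20 in preparations and 23.7 and 10.5 in spheroids (log2 fold change 2.28 ± 0.42 SE, adjusted p = 0.00785 against preparations). Irises held 193, 164 and 173 and explants 218, 214, 216, 219 and 193, and the log2 fold change between them was 0.36 (SE 0.07, adjusted p = 0.00938). Without spheroid sample 1 the adjusted p of *Plat* between spheroids and preparations was 0.06. An explant held 1.51 to 1.85 times the *Plat* of its iris part, and in corrected values 407, 293, 385, 328 and 216. *Plau*, urokinase, was at 27.1, 23.6 and 17.1 in irises, 29.5, 20.1, 25.6, 16.8 and 19.4 in explants and at most 2.10 TPM in every liver, preparation and spheroid sample (log2 fold change 0.07 ± 0.20 SE, adjusted p = 0.866 for explants against irises).

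The receptor of protein C, *Procr*, was the only gene of the list whose level in all 5 explants lay under the level that the iris part alone would give. It was at 125, 116 and 108 TPM in irises and 81.2, 60.96, 76.2, 68.7 and 63.8 in explants (log2 fold change -0.64 ± 0.09 SE, adjusted p = 0.00183), with no overlap and under the fold change limit. The explants held 0.769 to 0.928 times the *Procr* of their iris part, so that every corrected value was set to 0. No fold of the corrected values against liver or spheroids is given. In vitro it was at 0.689, 0.391 and 1.77 in preparations and 7.11 and 4.36 in spheroids (log2 fold change 2.25 ± 0.63 SE, adjusted p = 0.036), from counts of 2, 1 and 4 and of 19 and 11. The call in vitro was lost without either spheroid sample (adjusted p = 0.18 and 0.0891), without hepatocyte preparation 1 (0.0836) or 2 (0.0726), and with DESeq2 (0.11).

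**Figure D5:**
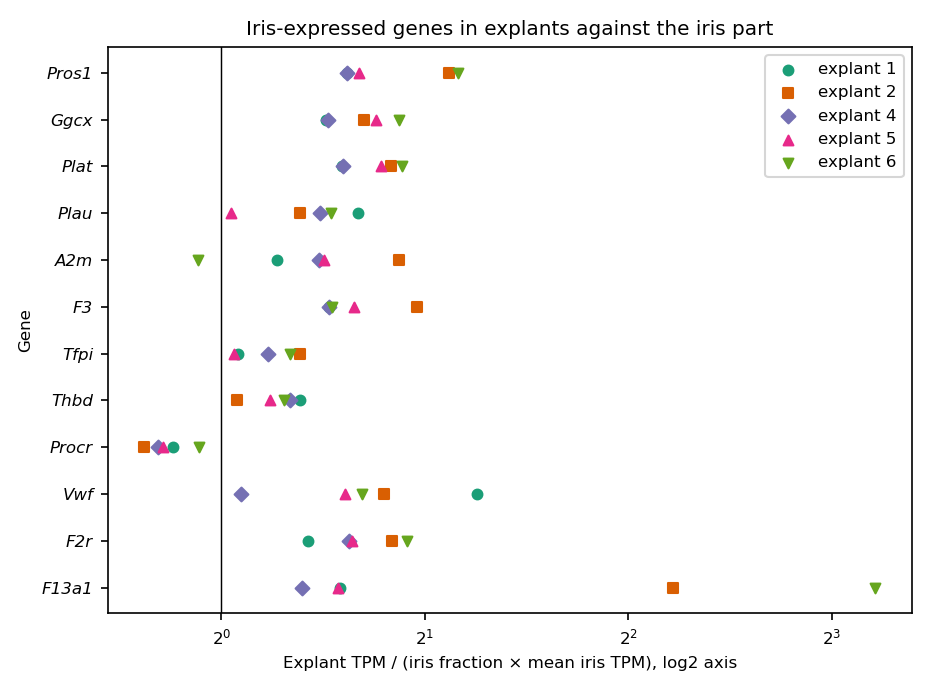
For each gene outside the hepatocyte class other than *F8* and *Plaur* (rows), the TPM of each explant divided by its iris fraction times the mean iris TPM, on a log2 axis, with a symbol per explant. *Vkorc1* and *F5*, which iris also expresses, are not shown. A value of 1 is the level the iris part would give. *Procr* lies under 1 in all 5 explants, *A2m* in explant 6, and *F13a1* reaches 4.65 and 9.28 in explants 2 and 6.

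Thrombomodulin, *Thbd*, which turns thrombin into an activator of protein C, was at 251, 252 and 238 TPM in irises and 264, 177, 253, 210.2 and 180.4 in explants (log2 fold change -0.10 ± 0.10 SE, adjusted p = 0.568), 1.06 to 1.31 times the iris part. In livers it was at 5.43, 6.05 and 4.96 and in spheroids at 15.5 and 4.11. *A2m*, a protease inhibitor of broad range, was at 199.7, 257 and 210.4 in irises and 221, 277, 251, 227 and 121 in explants (log2 fold change 0.07 ± 0.20 SE, adjusted p = 0.863), and explant 6 was the lowest, at 0.924 times its iris part. *Tfpi*, the inhibitor of the tissue factor pathway, was at 27.7, 28.3 and 28.8 in irises and 24.5, 25.1, 26.8, 21.2 and 21.1 in explants (log2 fold change -0.15 ± 0.09 SE, adjusted p = 0.308). The groups overlapped for *Thbd* and *A2m*, and all explants lay under all irises for *Tfpi*.

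*F3*, tissue factor itself, was at 40.6, 40.1 and 37.2 TPM in irises, 46.5, 52.0, 45.95, 44.4 and 33.9 in explants and 14.9, 7.24 and 6.52 in livers. The spheroid samples differed, at 37.3 and 4.78, and did not stand apart from the preparations at 14.7, 6.29 and 10.3 (log2 fold change 0.61 ± 0.68 SE, adjusted p = 0.543). *F2r*, a thrombin receptor, was at 42.98, 56.2 and 52.6 in livers, 86.7, 83.3 and 81.3 in irises and 92.3, 102, 105, 94.2 and 93.0 in explants, where all explants lay above all irises (log2 fold change 0.31 ± 0.08 SE, adjusted p = 0.0309).

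*Vwf*, the von Willebrand factor of endothelium and platelets, was the single gene called between hepatocyte preparations and liver. It was at 1.78, 1.67 and 0.944 TPM in livers, from 41, 38 and 23 counts, and at 0.131, 0.198 and 0.056 in preparations, from 3, 4 and 1 counts (log2 fold change -3.30 ± 0.49 SE, adjusted p = 0.0289). The call was lost with limma-voom (adjusted p = 0.068) and without preparation 2 (0.0946), preparation 3 (0.141) or liver 2 (0.0602). Irises held 3.77, 3.64 and 3.74 and explants 7.29, 4.39, 3.22, 4.08 and 3.54, of which explant 1 was the highest (log2 fold change 0.36 ± 0.23 SE, adjusted p = 0.351). The 10 markers of vascular endothelium summed to 156 to 179 TPM in livers, 42.8 to 97.1 in preparations, 92.1 and 128 in spheroids, 235 to 312 in explants and 238 to 258 in irises, with at least 9 of 10 at 1 TPM or more on average in every group and none at 0 in every sample of a group. The 10 markers of fibroblasts and stellate cells, all at 1 TPM or more on average in livers and explants, 9 in irises and 6 in preparations and in spheroids, summed to 458 to 1347 TPM in livers, 122 to 177 in preparations, 315 and 362 in spheroids, 1834 to 2144 in explants and 2260 to 2583 in irises, with *Dpt* at 0 in both spheroid samples. The 8 markers of iris and pigment epithelium summed to 9251 to 9712 TPM in irises, 6575 to 8395 in explants and at most 582 elsewhere, and the 3 of mesothelium to at most 6.74 outside livers, where they reached 42.8. The part of endothelial and stromal cells in these genes was not tested.

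Of 35 other genes of the pathway, 26 were tested in explants against irises, and edgeR called 11 higher (6.16% of all genes tested) and 0 lower (0.316%), with 1 lower at an unadjusted p under 0.05. Their median log2 fold change was 0.49, against 0.01 over all genes tested. The largest changes were in *Mug2*, a protease inhibitor related to *A2m* (log2 fold change 5.85 ± 0.44 SE, adjusted p = 0.000146), *Habp2*, a plasma protease (log2 fold change 5.54 ± 0.54 SE, adjusted p = 0.000399), *Hgfac*, the activator of hepatocyte growth factor (log2 fold change 5.38 ± 0.56 SE, adjusted p = 0.000515), and *Serpina10*, the inhibitor that works with protein Z (log2 fold change 5.32 ± 0.51 SE, adjusted p = 0.000392). Between preparations and livers only *Tfpi2*, an inhibitor of plasmin, was called among 23 tested, where 0.409% of all genes tested were called higher (log2 fold change 1.03 ± 0.20 SE, adjusted p = 0.0393). In spheroids against preparations 3 of 24 were called higher, near the 8.13% of all genes tested, *F2rl1*, a protease-activated receptor (log2 fold change 5.57 ± 0.58 SE, adjusted p = 0.000925), *Serpina5*, the protein C inhibitor (log2 fold change 3.55 ± 0.47 SE, adjusted p = 0.00206), and *Anxa2*, which binds plasminogen on the cell surface (log2 fold change 3.44 ± 0.23 SE, adjusted p = 0.000153). The 6 called lower, against 9.11% of all genes tested, included *Mug2* (log2 fold change -2.09), *Hrg* (-1.48), *Pzp* (-1.44) and *Tfpi2* (-1.31).

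In corrected explants 7 of 34 genes of this second list were called higher than in liver (10.5% of all genes tested) and 0 lower (2.82%), with 5 lower at an unadjusted p under 0.05, and 7 were called higher (4.37%) and 2 lower (0.951%) than in spheroids. The median log2 difference from liver was 0.65, against 0.59 over all genes tested. The calls against liver included *F2rl1* (log2 difference 3.67 ± 0.51 SE, adjusted p = 0.00279), *Mgp*, an inhibitor of calcification that depends on vitamin K (log2 difference 3.56 ± 0.66 SE, adjusted p = 0.00855), and *Entpd1*, an ectonucleotidase of endothelium (log2 difference 2.84 ± 0.51 SE, adjusted p = 0.00791). Irises held 13.6 TPM of *F2rl1*, 173 of *Mgp* and 14.6 of *Entpd1* on average, so these calls are values and are not read as differences. *Serpina5*, at 0 in all irises, was lower in corrected explants than in spheroids (log2 difference -3.38 ± 0.73 SE, adjusted p = 0.0358). The other call, *Mcfd2*, which helps factors V and VIII out of the endoplasmic reticulum (log2 difference -1.56 ± 0.35 SE, adjusted p = 0.0411), was at 281 TPM on average in irises and is likewise not read as a difference.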

How the data were processed

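Bulk libraries made with Smart-seq3 were sequenced by the authors from 16 samples in 5 groups, with 3 technical libraries per sample. Per the labels and methods, reads were aligned to mm10 with TopHat2, and reads starting at the same position were removed. The paper's reporting summary also lists UMI-tool dedup. The deposited counts per gene came from featureCounts 1.4.6-p5. The deposited TPM per sample exist before and after correction for iris RNA, and the corrected signal was made by the authors by subtracting an iris share. Symbols were taken from the corrected table, gene positions from the deposited count files, and promoters from RefSeq tables.

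Corrected values of explants were recomputed by the authors' formula with the iris shares solved from the deposited tables, and the deposited ones were an alternative. Counts summed over technical libraries were tested with the quasi-likelihood test of edgeR 4.0.16 (R 4.3.3), with TMM scaling and Benjamini-Hochberg adjustment over all genes tested, and corrected values, on log2(TPM + 1) with a mean of at least 1 TPM, with limma 3.58.1. A gene was called at an adjusted p under 0.05 and an absolute log2 value over 1. Standard errors are those of the fits. The alternatives were DESeq2 1.42.0, limma-voom, other scalings and filters, a replicate block, other forms of the correction and leaving out each sample. Both tests were tested on simulated data, where the test of corrected values also called unchanged genes that iris expresses. The explants enter 3 comparisons, and livers, hepatocyte preparations and spheroids 2 each, so these share samples.

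The members and lists were chosen with earlier results of these data known. The text may name any gene of the list, markers with their list and, of the second list, the called genes with the largest absolute change, at most 4 per comparison and direction. A gene of the second list that this rule names is not reported here. Depth was 2718518 to 6789648 counts per sample.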

Additional observations from a re-analysis of the deposited data

Results flagged for a closer look

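Over the 5 explants, 69 sets of values were examined for a sample whose gap to the nearest other, divided by the range, passed 0.71, and chance gives about 1 such set in 20. Before correction, *Plat* in explant 6 was at 192.7 TPM, against 214 to 219 in the others, and *Vwf* in explant 1 at 7.29 TPM, against 3.22 to 4.39. After correction, *Vwf* in explant 1 was at 23.5 TPM, against 1.11 to 5.84.

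Explant 4 stood apart for 3 genes after correction. *F5* was at 218 TPM there, against 121 to 144 in the other explants, *F8* at 11.2 TPM, against 2.02 to 4.13, and *F9* at 132 TPM, against 195 to 211.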

How the results depend on the processing

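The calls of explants against irises and of hepatocyte preparations against livers kept their counts of genes called higher, 20 and 0, without any single sample. The count called lower stayed at 0 between explants and irises and was 0 to 1 between preparations and livers. Without single samples it was 1 to 3 higher and 2 to 11 lower between spheroids and preparations, 5 to 8 higher and 0 to 2 lower between corrected explants and livers, and 1 to 4 higher and 0 to 1 lower between corrected explants and spheroids. Over all settings, 121 counts stayed the same or within 1.5 times, 11 rose and 26 fell. Of the values for single genes 2504 stayed called or uncalled as before, 71 gained a call, 58 lost it and 24 turned and were called. The direction of values that stayed uncalled was not compared. The cause of these changes was not tested.

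With no fold change limit the count called lower was 1 between explants and irises, 12 between spheroids and preparations and 2 between corrected explants and livers, while the counts called higher were 11 in corrected explants against livers and 8 against spheroids. With limma-voom 0 genes were lower in preparations than in livers, and with library size alone 3 were lower in spheroids than in preparations. With a mean of at least 10 TPM the count called lower was 0 in corrected explants against livers and 0 against spheroids. With the deposited corrected table it was 0 against livers, and 1 gene was called higher against spheroids, and its column for explant 4 follows another form of the correction. With the iris fraction by non-negative least squares 5 genes were called higher against spheroids.

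Without the correction the explants had 22 genes called lower against livers, and 9 called higher and 17 lower against spheroids. The log2 differences that turned and were called then were, against livers, -1.37 for *Serpinc1*, -1.75 for *F2*, 4.59 for *Procr*, -1.24 for *Fgg*, -1.25 for *Fga*, -1.11 for *Fgb*, -1.64 for *Serpinf2*, -1.46 for *Cpb2*, -1.68 for *Serpind1*, -1.56 for *Kng2* and -1.38 for *Kng1*. Against spheroids they were -1.39 for *F13b*, -1.25 for *Serpinc1*, -1.63 for *F2*, 3.42 for *Procr*, -1.12 for *Fgb*, -1.67 for *F7*, -1.08 for *F10*, -1.53 for *Serpinf2*, -1.78 for *Cpb2*, -1.08 for *Serpind1*, -1.24 for *Kng1*, -1.56 for *Plg* and -1.57 for *Proc*. Differences that turned without a call are not listed. The uncorrected values lack both the subtraction of the iris share and the division by the remaining share. The part of each step in the change of sign was not tested. For *Procr*, set to 0 in every corrected explant, no direction is read from the corrected value.

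The labels do not say that a replicate number marks a shared animal, and same-numbered samples deviated from their group means with correlations of 0.104, 0.0638 and -0.0449 in preparations and livers, 0.106 and 0.138 in spheroids and preparations, 0.0482 and -0.106 in explants and irises, 0.00793 and -0.137 in explants and livers, and 0.133 and 0.0724 in explants and spheroids. With the replicate number as a block, 0 genes of the list were called higher and 0 lower in corrected explants against livers, and 0 and 0 against spheroids, as over all 22878 and 22706 genes tested. These numbers give no pairing, so this is not read as a weaker effect. Low counts limit *Vwf*, *Procr*, *F13a1* and *Plaur*, and 2 spheroid samples limit each comparison with them.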
